A study of Mus musculus with 12 samples.

Results

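The genes described here are imprinted genes, a list of 40 that includes Grb10 and covers most of the well-studied imprinted clusters of the mouse. They were measured in R1 cells, an established mouse embryonic stem cell line, on Affymetrix gene arrays, each hybridised with 1 sample in 1 colour. Members were found by gene symbol, and for each the brightest probe set that carries a single symbol was used. This gave values for 33 of the 40 members, out of 19938 genes with a value in all. Mirg, Gnas and Snrpn were covered only by probe sets shared with another gene and are given apart. Zrsr1, H19, Kcnq1ot1 and Peg13 were not matched to a probe set and were not analysed here.

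There were 6 groups of 2 arrays, which the labels call biological replicates. All cells were R1 clones infected with either a scrambled control or a Set knockdown construct. Knockdown cells belonged to 2 lines, named KD1 and KD2, and no uninfected cells were analysed here. Set encodes a histone chaperone and inhibitor of protein phosphatase 2A. Growing stem cells, called ESC, were kept in medium containing serum at 15% and leukemia inhibitory factor (LIF) at 1000 U/ml. Differentiating cells, called RA, had been cultured for 4 days with retinoic acid at 1 µM, with LIF withdrawn and serum lowered to 10%. A change from ESC to RA therefore joins retinoic acid, LIF withdrawal and the serum change. Each construct is represented by its own line, so a difference between a knockdown line and the scrambled line cannot be told apart from a difference between clones. The p-values accordingly rest on how far arrays of 1 line differ among themselves.

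Imprinted genes are expressed mainly from the copy inherited from 1 parent. For most of them the choice is set by DNA methylation that differs between eggs and sperm. It is kept after fertilisation by the zinc-finger protein ZFP57, its cofactor TRIM28 and the methyltransferase DNMT1. Most imprinted genes lie in clusters that share a control region, and many act on growth, on the placenta or on metabolism. Cultured stem cells are known to lose or change imprints, and the array reads both copies of a gene together, so allele-specific expression was not measured here. Of the 33 measured members, 20 are usually expressed from the paternal copy and 13 from the maternal copy. A lower signal in a culture can also come from fewer cells of a type or from less RNA per cell, and these cannot be told apart here.

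The promoters of the 3 members with the lowest knockdown signal relative to scrambled cells in RA in the fit of 10 arrays, Grb10, Zim1 and Plagl1, are shown because the later results turn on these genes. They come from the RefSeq promoter table for assembly GRCm38.p6 and give the 250 bases before an annotated start, 5′ to 3′ on the gene's strand. Capitals mark every CG, the dinucleotide that carries DNA methylation.
Grb10, chr11:12037421-12037670, minus strand: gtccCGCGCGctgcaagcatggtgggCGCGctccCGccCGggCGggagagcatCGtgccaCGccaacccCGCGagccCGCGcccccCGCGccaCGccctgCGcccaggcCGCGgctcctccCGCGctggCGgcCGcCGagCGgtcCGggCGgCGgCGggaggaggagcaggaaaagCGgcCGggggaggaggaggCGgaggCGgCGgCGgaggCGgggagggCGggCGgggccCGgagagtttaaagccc
Grb10, second annotated start, chr11:12027972-12028221, minus strand: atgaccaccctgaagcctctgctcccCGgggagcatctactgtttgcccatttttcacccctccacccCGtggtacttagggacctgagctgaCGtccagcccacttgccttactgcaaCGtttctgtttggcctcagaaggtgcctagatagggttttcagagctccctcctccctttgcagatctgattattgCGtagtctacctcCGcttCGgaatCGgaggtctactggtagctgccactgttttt
Zim1, chr7:6696433-6696682, minus strand: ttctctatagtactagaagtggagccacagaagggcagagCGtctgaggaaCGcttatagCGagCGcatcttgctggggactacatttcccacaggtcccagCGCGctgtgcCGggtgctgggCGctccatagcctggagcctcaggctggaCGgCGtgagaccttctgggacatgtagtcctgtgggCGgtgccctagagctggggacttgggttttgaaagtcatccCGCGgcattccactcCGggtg
Plagl1, chr10:13090582-13090831, plus strand: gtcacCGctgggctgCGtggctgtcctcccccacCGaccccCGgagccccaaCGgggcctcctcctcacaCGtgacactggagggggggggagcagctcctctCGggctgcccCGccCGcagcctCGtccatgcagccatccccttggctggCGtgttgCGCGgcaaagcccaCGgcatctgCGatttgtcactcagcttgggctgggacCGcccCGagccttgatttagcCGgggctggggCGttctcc

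The outermost Grb10 promoter is dense in CG. Counted over the 300 bases in the table, 50 of them after the start, it holds 45 CG, and 1.93% of all 32851 promoters hold as many or more. The second Grb10 promoter holds 9 CG, a count that 45.8% of promoters reach, and Zim1 holds 20 (26.5%) and Plagl1 26 (16.9%). Over the 53 promoters of the 32 members that matched the table, the median was 11 CG per promoter against 7 over all promoters. The letters TGCCGC, which ZFP57 is known to recognise when methylated, were searched on both strands. This motif contains a CG and so overlaps the capitals. It was present in 10 of the 53 member promoters (18.9%) and in 11.6% of all promoters. In the outermost Grb10 promoter it lies 24 bases after the start, outside the stretch printed above. In Zim1 it lies 20 bases before the start and in Plagl1 90 bases before it. These matches describe letters in a window and are not binding sites.

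Before the members are compared, some facts about the arrays matter. The library labelled ESC KD2 replicate 2, called the RA-like ESC array below, correlated at a mean of 0.967 with the other arrays labelled ESC and 0.992 with those labelled RA, and the one labelled RA KD2 replicate 2, called the ESC-like RA array, at 0.967 with RA and 0.992 with ESC. Retinoic acid response genes had an array mean of 11.21 log2 units in the first of these and 7.38 in the second, where the other ESC arrays lay between 7.04 and 7.51 and the other RA arrays between 11.06 and 11.18. Both were kept under their labels. An exchange of their labels was not tested, and planned values for KD2 join arrays of both kinds. Counts are given from the planned fit of all 12 arrays and from a fit of 10 arrays without these 2, and single members mostly from the latter, in which KD2 has 1 array per state, whose spread is taken from that of the remaining groups. The targeted gene Set, read by a probe set that also covers BC085271, lay lower in every knockdown array than in both scrambled arrays of the same state. It read 12.71 and 12.93 in scrambled ESC against 11.94 to 12.15 in KD1 and KD2 replicate 1. RA arrays read 12.27 and 12.29 in scrambled cells against 11.16 to 11.70 in the same knockdown arrays. The RA-like ESC array read 11.87 and the ESC-like RA array 11.99. A second probe set shared by these 2 genes was also lower in every knockdown array of its state. The 2 probe sets for Set alone were much dimmer, and in RA none of the knockdown arrays lay below both scrambled ones: they read 6.61 to 7.91 in the knockdown arrays against 6.45 and 6.68 in scrambled cells, and 6.04 to 7.05 against 5.83 and 6.09. Array medians lay between 7.17 and 7.24. In the scrambled and KD1 arrays, naive pluripotency genes had array means from 11.65 to 11.86 log2 units in ESC and from 8.54 to 9.12 in RA.

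Imprinted genes mostly gained signal as scrambled cells went from ESC to RA. Dcn, which encodes the matrix proteoglycan decorin, rose most, by 5.19 log2 units, followed by Dlk1 (4.05), the non-coding RNA Airn (3.86), Zim1 (3.74), Plagl1 (3.70), Peg3 (3.05), Igf2 (3.03) and Nnat (2.97), as fitted in the 10 arrays. In that fit limma called 23 of 33 members (69.7%) at an adjusted p below 0.05, with 22 higher and only Commd1 lower (-0.85), where 42.6% of all genes were called. In the planned fit of 12 arrays 12 members were called, 11 higher and 1 lower, against 13.8% of all genes. That count fell to 0 when any 1 of the 4 scrambled arrays was left out, while the fit of 10 arrays gave 21 to 24. The median change over the 33 members was 1.01 log2 units, and over all genes -0.04. By usual allele, 19 of 20 paternally expressed members and 9 of 13 maternally expressed ones lay above 0, with medians of 1.04 and 1.01.

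**Figure D1:**
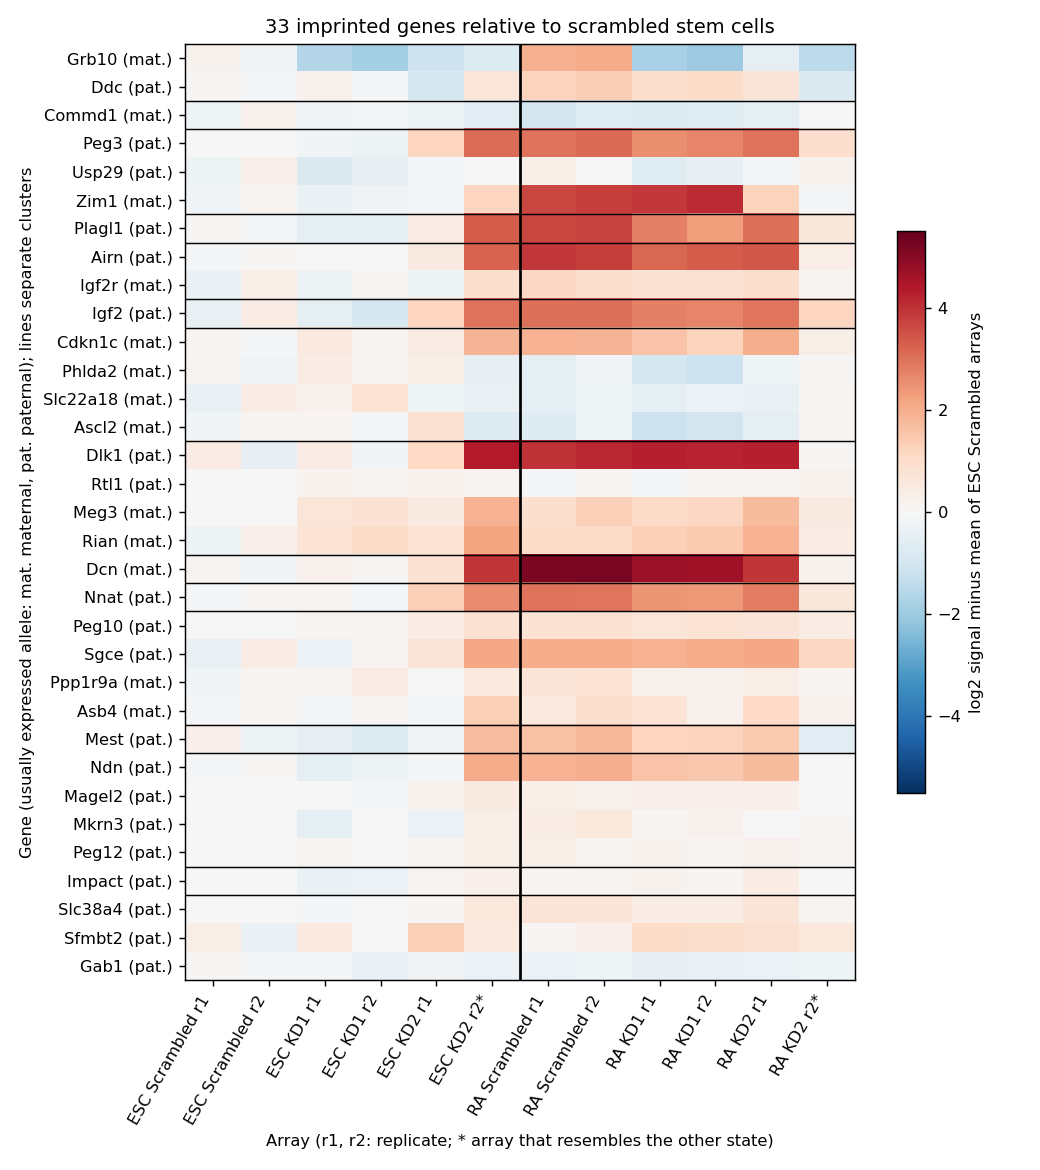
Log2 signal of the 33 measured members in each array, relative to the mean of the 2 scrambled ESC arrays (colour bar in log2 units, red higher and blue lower). Most rows turn red in the RA arrays, Grb10 turns clearly red only in the 2 scrambled RA arrays, and the 2 columns with an asterisk look like the other state.

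The knockdown lines showed most of the same increases. In KD1, a comparison added after the data were seen and free of the KD2 arrays, 25 members were called in the fit of 10 arrays, 21 higher and 4 lower, where 41% of all genes were called. In the planned fit 9 were called, 8 higher and Phlda2 lower, against 11.3%. Over both lines the fit of 10 arrays called 22 members, 20 higher with Phlda2 (-0.97) and Ascl2 (-1.23) lower, against 41.2% of all genes. The planned fit called Zim1 alone, against 0.527%. Without ESC KD2 replicate 2 that planned count was 11, without RA KD2 replicate 2 it was 12, and without any 1 of the other 6 knockdown arrays it was 0. Grb10 was not among them, with RA minus ESC differences of -0.16 (SE 0.16) in KD1 and 0.23 (SE 0.14) over both lines.

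Against scrambled cells of the same state, Grb10 had the largest knockdown difference over both lines of the members, in both states, in the fit of 10 arrays. For KD2 alone in ESC, Nnat, Sfmbt2, Igf2 and Peg3 lay further from 0 than Grb10 in that fit. Over both lines Dlk1 was further from 0 in the planned ESC fit (1.43, adjusted p = 0.866) than Grb10 (-1.34), neither of them called. In ESC limma called 0 of 33 members in the planned fit, with 6 at an unadjusted p below 0.05 and 0.0953% of all genes called. The fit of 10 arrays called 4 members, Grb10 lower and Peg3, Nnat and Peg10 higher, against 1.04%. In RA the planned fit called Grb10 alone, against 1.14% of all genes, and the fit of 10 arrays called 5 members, all lower, against 6.05%: Grb10, Zim1, Plagl1, Dcn and Airn. The median difference over the 33 members in RA was -0.19 in that fit, and over all genes 0.01. The test of whether the knockdown difference itself changed between ESC and RA called 0 members in the planned fit, with 5 at an unadjusted p below 0.05 and 0.0301% of all genes called. It called 6 in the fit of 10 arrays, against 1.89%. Grb10 and Zim1 were the only members called in any knockdown comparison of the planned fit, so every other call on the knockdown named here rests on the fit of 10 arrays.

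Single arrays moved several of these counts. Without either scrambled RA array the 5 members called in RA became 3 (Grb10, Zim1 and Dcn), and the planned count in RA became 2 without RA KD2 replicate 1 (Grb10 and Zim1). The 4 called in ESC became 2 (Grb10 and Peg10) without ESC KD1 replicate 1. The 6 called for the change between states became 1 (Grb10) without RA Scrambled replicate 1 and 3 without RA KD1 replicate 2, and the planned 0 became 1 (Grb10) without RA KD2 replicate 1.

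Taken by line, KD1 had 0 members called in ESC in the planned fit, with 3 at an unadjusted p below 0.05, against 0.0652% of all genes. In the fit of 10 arrays it had 3 (Grb10 lower, Meg3 and Rian higher), against 1.92%, and Grb10 alone without either KD1 ESC array. In RA, KD1 had Grb10 called in the planned fit, against 2.32%, and 9 members in the fit of 10 arrays, all lower, against 12.1%: Grb10, Plagl1, Usp29, Phlda2, Airn, Nnat, Dcn, Peg3 and Slc38a4. Leaving out RA Scrambled replicate 1 gave 4, RA Scrambled replicate 2 gave 3, RA KD1 replicate 1 gave 3 and RA KD1 replicate 2 gave 2, and Grb10 and Plagl1 were called in each case. The change between states for KD1 alone called 0 members in the planned fit, with 3 at an unadjusted p below 0.05, against 0.261%, and Grb10 and Phlda2 in the fit of 10 arrays, against 4.82%.

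For KD2 in ESC the planned fit called 0 members, with 9 at an unadjusted p below 0.05, against 0.0853% of all genes, and the fit of 10 arrays 4 (Grb10 lower, Peg3, Nnat and Peg10 higher), against 0.988%. That count became 7 without ESC Scrambled replicate 1. Planned KD2 differences in ESC were 2.12 for Peg3 (adjusted p = 0.393), 1.97 for Nnat (adjusted p = 0.401) and 0.63 for Peg10 (adjusted p = 0.212), with the RA-like ESC array among them. Of the marker lists, 3 of 11 extraembryonic endoderm genes and 2 of 8 trophoblast genes were called higher for KD2 in ESC in the fit of 10 arrays. Their means in KD2 replicate 1 were 8.96 against 8.13 and 8.20 in the scrambled arrays, and 9.66 against 8.77 and 9.13. None of the 12 naive, 9 RA response, 10 fibroblast or 7 neural genes was called, and the part of these markers in the result was not tested. In RA the planned fit called Grb10 and Zim1 lower for KD2, against 0.271%, and the fit of 10 arrays called Grb10, Zim1 and Dcn lower, against 0.963%. The planned pair became 0 without either scrambled RA array, 4 without RA KD2 replicate 1 and Grb10 alone without RA KD2 replicate 2.

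**Figure D2:**
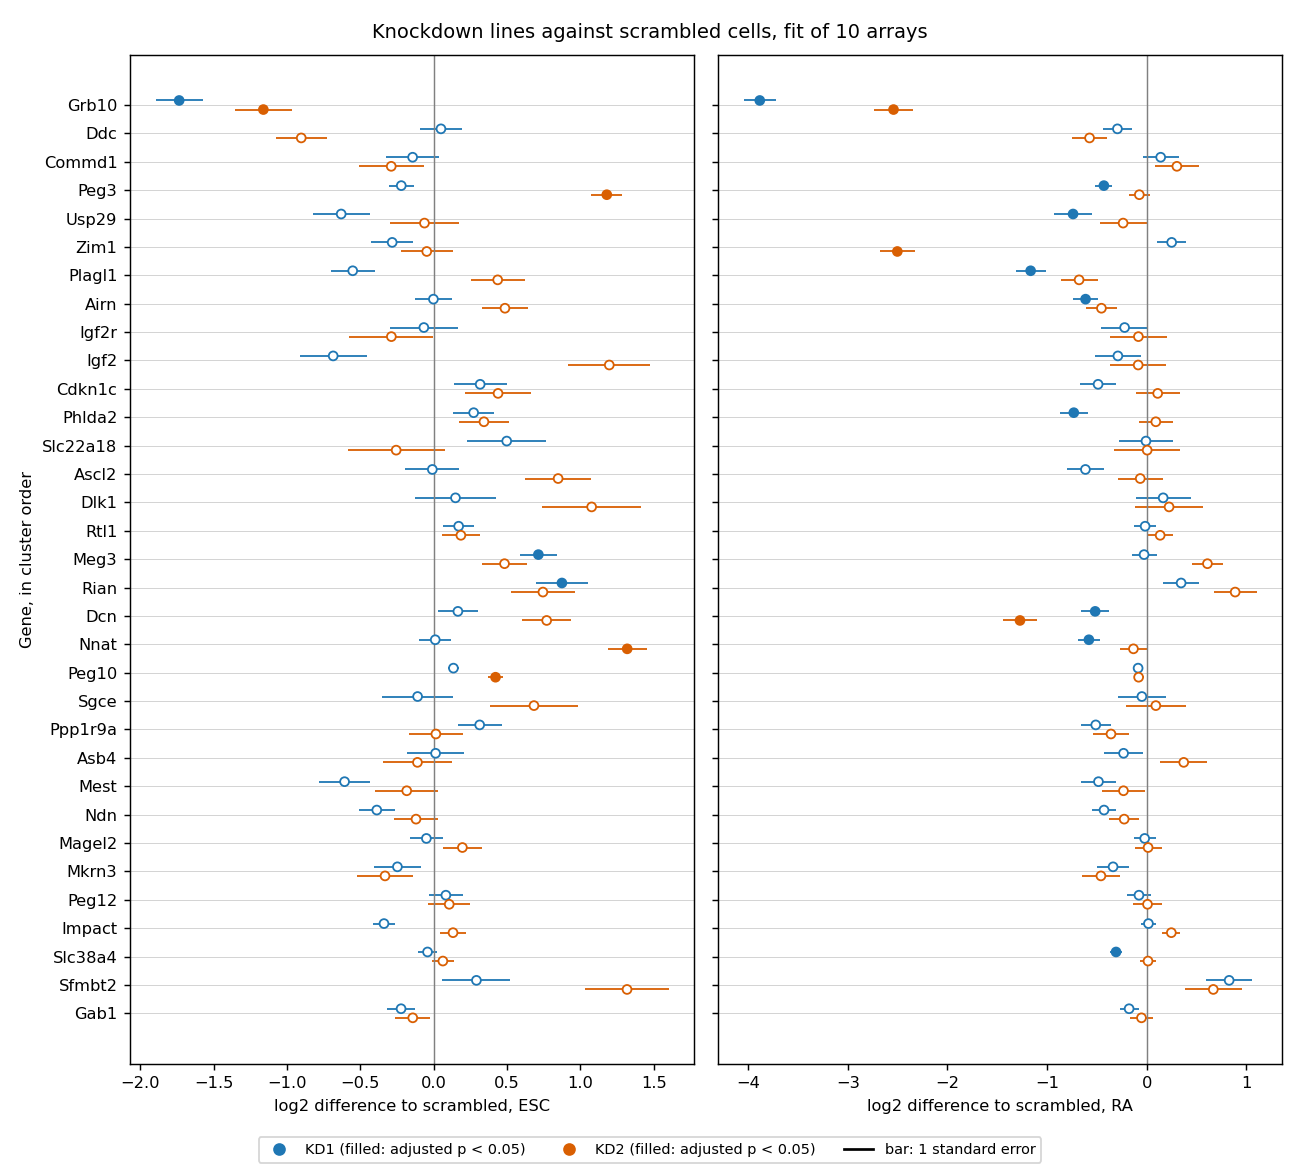
Log2 difference of each member in KD1 (blue) and KD2 (orange) from scrambled cells in ESC (left) and RA (right), fit of 10 arrays, with bars of 1 standard error and filled points where the adjusted p was below 0.05. Grb10 is filled and below 0 for both lines in both panels, and Zim1 in RA is filled for KD2 at -2.50 but lies at 0.25 for KD1.

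Grb10 encodes an adaptor that binds the insulin and insulin-like growth factor receptors and limits growth. It is usually expressed from the maternal copy outside neurons and lies on chr11:11930499-12037428 (GRCm38.p6). In ESC it read 9.74 and 9.38 log2 units in the scrambled line and 7.95 and 7.71 in KD1, while KD2 replicate 1 read 8.40 and 8.81 was measured in the RA-like ESC array. The values in RA were 11.52 and 11.59 in the scrambled line, 7.78 and 7.56 in KD1, 9.01 in the other KD2 array and 8.10 in the ESC-like RA array. Both scrambled arrays lay above all 4 knockdown arrays in each state, including the arrays that resembled the other state, and the scrambled RA arrays lay above every other array of the series.

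In RA the Grb10 signal of KD1 was 6.77% of that of scrambled cells, a difference of -3.88 log2 units (SE 0.16, adjusted p = 2.83e-06, fit of 10 arrays; adjusted p = 0.000587 in the planned fit). That of KD2 was 17.2%, a difference of -2.54 (SE 0.20, adjusted p = 0.00095), or 12.5% in the planned fit (adjusted p = 0.0128). In the planned fit the KD2 call was lost without RA Scrambled replicate 1 (adjusted p = 0.134) or RA Scrambled replicate 2 (adjusted p = 0.0965). In ESC it stood at 30.0% in KD1 (-1.73, SE 0.16, adjusted p = 0.00196) and 44.7% in KD2 (-1.16, SE 0.20, adjusted p = 0.0337), and neither was called in the planned fit (adjusted p = 0.125 and 0.39). The knockdown difference was larger in RA than in ESC (interaction -1.77 log2 units, SE 0.21, adjusted p = 0.00629), against an adjusted p of 0.107 in the planned fit. With KD1 alone the interaction was -2.15 (SE 0.23, adjusted p = 0.00138). In the fit of 10 arrays the Grb10 calls against scrambled cells, and the interaction over both lines, were kept when each of the scrambled and KD1 arrays compared was left out in turn.

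The scrambled line raised Grb10 to 3.98 times its ESC signal in RA (1.99 log2 units, SE 0.16, adjusted p = 1.66e-05; planned fit 0.0197). The KD1 value in RA was 89.8% of its ESC value, and the difference was not called. The 2 lines also differed from each other in RA, with KD1 lower than KD2 (-1.34, SE 0.20, adjusted p = 0.00712 in the fit of 10 arrays). That call was lost without RA KD1 replicate 2 (adjusted p = 0.0756), and in the planned fit the difference was -0.89 (adjusted p = 0.235).

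**Figure D3:**
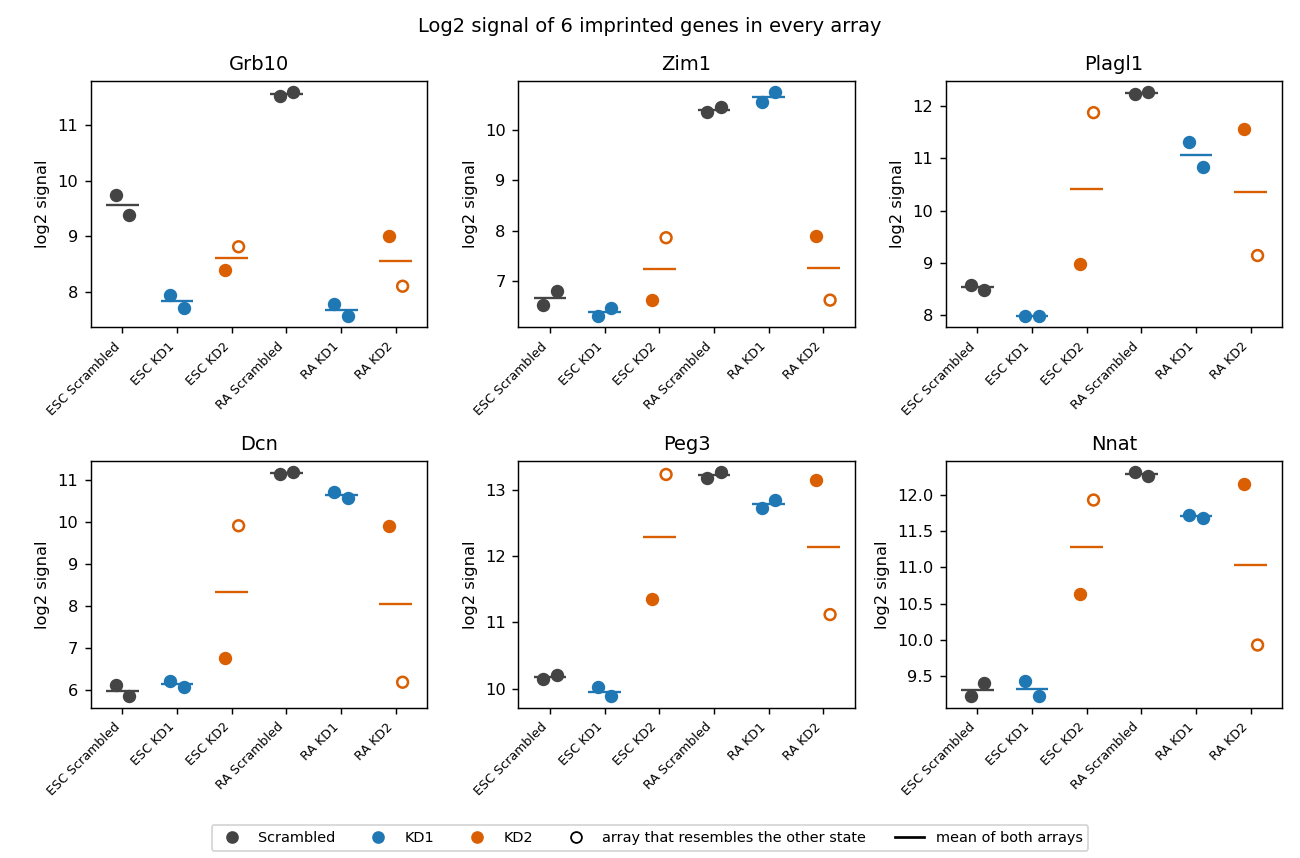
Log2 signal of Grb10, Zim1, Plagl1, Dcn, Peg3 and Nnat in every array by group, with lines at the group means and open circles for the 2 arrays that resembled the other state. In RA all 4 knockdown points of Grb10 lie at or below 9.01 while the scrambled points lie at 11.52 and 11.59, and the KD1 points of Zim1 lie beside the scrambled ones.

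The 4 measured genes on each side of Grb10 were examined to see whether the difference reached beyond it. In chromosome order these were 4930512M02Rik, Ikzf1, Fignl1 and Ddc on one side and Cobl, Vstm2a, Egfr and Fbxo48 on the other. None of them was called against scrambled cells for either line or both lines in ESC or RA, in either fit. However, 4930512M02Rik (at most 5.77), Ikzf1 (6.64), Vstm2a (7.13) and Fbxo48 (7.02) lay below the median of all values, 7.22, in every array. A fall could hardly be seen in these genes. Vstm2a, Egfr and Fbxo48 also lie far from Grb10, which ends at 12037428, as Vstm2a, the closest of them, starts at 16257742. Fbxo48 read 6.51 and 7.02 in scrambled ESC and 5.97 to 6.30 in the 4 knockdown arrays. Its difference over both lines in ESC was -0.69 in the planned fit (SE 0.16, adjusted p = 0.337) and -0.72 in the fit of 10 arrays. In RA it was 0.20 and 0.14. The closest neighbour at lower coordinates, Ddc, encodes the decarboxylase that makes dopamine and serotonin and has an imprinted transcript in heart. It read 9.35 and 9.18 in scrambled ESC, 9.49 and 9.15 in KD1, 8.37 in the other KD2 array and 9.95 in the RA-like ESC array. Its RA signals were 10.48 and 10.61, then 10.22 and 10.27, 9.97 and 8.45 in the same order. Ddc in KD2 ESC differed from scrambled cells by -0.90 in the fit of 10 arrays, with 1 KD2 array, and by -0.11 in the planned fit. Its RA difference over both lines was -0.43 (SE 0.13, adjusted p = 0.104, fit of 10 arrays), with both KD1 arrays and KD2 replicate 1 below the scrambled ones. In ESC KD1 exceeded KD2 by 0.95 (SE 0.17, adjusted p = 0.0292), a call lost without ESC KD1 replicate 1 (adjusted p = 0.0832).

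Cobl, an actin nucleator on the other side that is imprinted in some tissues, differed mainly between the states. Its RA minus ESC difference was -2.34 in scrambled cells and -2.52 in KD1 (fit of 10 arrays), both called. Its knockdown difference in RA was -0.04 (SE 0.15, adjusted p = 0.923). Egfr, the epidermal growth factor receptor, rose by 2.73 in scrambled cells and was -0.33 (SE 0.23, adjusted p = 0.508) in the knockdown lines in RA.

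**Figure D4:**
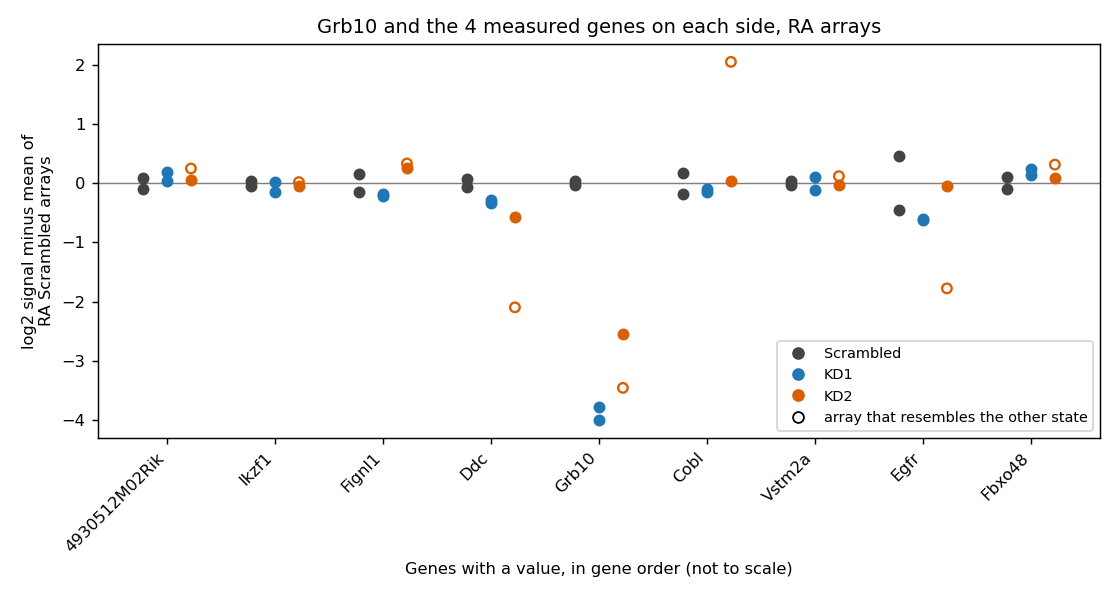
Log2 signal of Grb10 and the 4 measured genes on each side in the RA arrays, relative to the mean of the 2 scrambled RA arrays, with genes in chromosome order but not to scale. Grb10 lies between -3.99 and -2.54 in the knockdown arrays, while Ddc, Cobl and Egfr move far from 0 mainly in the open circle, the array that resembled ESC.

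The Peg3 cluster on chromosome 7 holds Zim1, a zinc-finger gene usually expressed from the maternal copy, beside the paternally expressed zinc-finger gene Peg3 and the ubiquitin protease gene Usp29. In ESC Zim1 was low in all groups, at 6.52 and 6.81 in the scrambled line, 6.30 and 6.46 in KD1 and 6.62 in KD2 replicate 1, with 7.86 in the RA-like ESC array. The RA values were 10.36 and 10.45 in the scrambled line, 10.56 and 10.75 in KD1, 7.90 in the other KD2 array and 6.62 in the ESC-like RA array. KD1 thus lay just above scrambled cells, and KD2 replicate 1 lay well below both, close to the RA-like ESC array.

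Zim1 in RA was 17.6% of scrambled in KD2 (-2.50, SE 0.18, adjusted p = 0.000787, fit of 10 arrays) and 119% in KD1 (0.25, SE 0.14, adjusted p = 0.347). The lines differed by 2.75 (SE 0.18, adjusted p = 0.000216), and both calls were kept when each scrambled or KD1 array compared was left out in turn. In the planned fit the difference between lines was 3.39 (adjusted p = 0.0111) and KD2 stood at -3.14 (adjusted p = 0.0404). The planned call between lines was lost without RA KD1 replicate 1 (adjusted p = 0.100) or replicate 2 (adjusted p = 0.133), and that of KD2 without RA Scrambled replicate 1 (0.291) or 2 (0.21) or RA KD2 replicate 2 (0.211). The mean over both lines, -1.13 (SE 0.13, adjusted p = 0.00208), therefore joins lines that did not move alike. The planned fit gave -1.45 for it (adjusted p = 0.16).

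Peg3 read 10.15 and 10.20 in scrambled ESC, 10.03 and 9.88 in KD1, and 11.36 in KD2 replicate 1. In the RA arrays the signals were 13.18 and 13.27, 12.73 and 12.86 in KD1, and 13.15 in KD2 replicate 1. The RA-like ESC array and the ESC-like RA array read 13.24 and 11.12. KD2 was thus higher than scrambled cells in ESC, by 1.18 (SE 0.11, adjusted p = 0.00371, fit of 10 arrays), while KD1 was lower in RA (-0.43, SE 0.09, adjusted p = 0.0126). The second call was lost without any 1 of the 4 arrays compared, and the mean over both lines in ESC, 0.48 (adjusted p = 0.0332), without either scrambled ESC array or ESC KD1 replicate 1.

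Usp29 read 6.70 or less in every array, below the median of all values, 7.22. It read 6.12 and 6.66 in scrambled ESC, 5.59 and 5.93 in KD1, and 6.32 and 6.38 in KD2. After RA it read 6.70 and 6.43 in the scrambled line, 5.73 and 5.93 in KD1, and 6.33 and 6.57 in KD2. The KD1 arrays were the lowest of each state, with a difference in RA of -0.74 (SE 0.19, adjusted p = 0.0388, fit of 10 arrays) that was not called without any 1 of these arrays. Its KD1 difference in ESC, -0.63, was of like size but was not called (adjusted p = 0.16). The adjacent genes of the cluster thus had different patterns over the lines, that of Usp29 drawn from signals below the median.

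Plagl1 on chromosome 10 encodes a zinc-finger transcription factor that restrains growth, and it is usually expressed from the paternal copy. Its levels were 8.58 and 8.49 in scrambled ESC, 7.99 and 7.98 in KD1 and 8.97 in KD2 replicate 1. In RA they were 12.22 and 12.26, 11.30 and 10.84 in KD1, and 11.56 in KD2 replicate 1, with 11.87 and 9.14 in the RA-like ESC array and the ESC-like RA array. All 4 knockdown arrays in RA lay below both scrambled ones. KD1 stood at 44.6% of scrambled in RA (-1.17, SE 0.15, adjusted p = 0.00146, fit of 10 arrays), a call kept when each array was left out, and KD2 at 62.5% (-0.68, SE 0.18, adjusted p = 0.164). Over both lines Plagl1 fell by 0.92 (SE 0.14, adjusted p = 0.00605), but not without either scrambled RA array. In the planned fit the difference was -1.53 (SE 0.79, adjusted p = 0.473).

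Dcn, which lies outside a cluster and is imprinted in placenta, read 6.11 and 5.84 in scrambled ESC, 6.22 and 6.06 in KD1 and 6.75 in KD2 replicate 1. The RA signals were 11.15 and 11.18, 10.72 and 10.58 in KD1 and 9.90 in KD2 replicate 1. The RA-like ESC array and the ESC-like RA array read 9.91 and 6.18. KD2 replicate 1 in RA and the RA-like ESC array thus had nearly the same level. Over both lines Dcn was called lower in RA (-0.89, SE 0.13, fit of 10 arrays). Dcn kept that call when each scrambled or KD1 RA array was left out in turn, while RA KD2 replicate 1 was not left out. By line its difference was -1.27 in KD2 (adjusted p = 0.0131), a call lost without either scrambled RA array, and -0.52 in KD1 (adjusted p = 0.0419), a call lost without any 1 of the scrambled or KD1 RA arrays. The planned fit gave -1.82 over both lines (SE 1.02, adjusted p = 0.503).

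Dcn is also a gene of fibroblasts and mesenchyme, so markers of these cells are given beside it. Their array mean was 8.28 and 8.35 in scrambled RA, 7.91 and 7.61 in KD1 and 8.46 in KD2 replicate 1. In KD1 5 of 10 such markers were called lower and 0 higher in the fit of 10 arrays, against 12.1% of all genes. For KD2, with 1 array in that fit, the median difference of these markers from scrambled cells was 0.15. Their part in the Dcn difference was not tested.

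At the Igf2r cluster on chromosome 17, Airn is the paternal non-coding RNA that runs against Igf2r, the maternally expressed receptor that clears insulin-like growth factor 2. The genes overlap in the annotation. Airn read 6.33 and 6.49 in scrambled ESC, 6.43 and 6.38 in KD1 and 6.89 in KD2 replicate 1. Its RA signals were 10.30 and 10.23, 9.55 and 9.75 in KD1, and 9.81 in KD2 replicate 1, with 9.66 and 6.78 in the RA-like ESC array and the ESC-like RA array. Airn fell by 0.53 over both lines in RA (SE 0.12, adjusted p = 0.0321, fit of 10 arrays) and by 0.61 in KD1 (SE 0.13, adjusted p = 0.014), and both calls were lost when any 1 of the scrambled or KD1 RA arrays was left out. The planned fit gave -1.29 over both lines (adjusted p = 0.577). Igf2r read 9.90 and 10.66 in scrambled ESC and 11.42 and 11.15 in scrambled RA, with knockdown differences in RA of -0.22 in KD1 and -0.08 in KD2, neither called. It rose between ESC and RA in scrambled cells by 1.01 (adjusted p = 0.00711), as its antisense RNA did, although the Igf2r call was lost without RA Scrambled replicate 1.

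Igf2, the growth factor of the H19 cluster, read 9.75 and 10.57 in scrambled ESC, 9.68 and 9.27 in KD1, and 11.36 in KD2 replicate 1. The RA values were 13.17 and 13.21, 12.94 and 12.86, and 13.11, in the same order, with 13.16 and 11.33 in the RA-like ESC array and the ESC-like RA array. KD2 replicate 1 was the highest of these ESC arrays, and KD1 was below KD2 in ESC (-1.88, SE 0.28, adjusted p = 0.0135), a call lost without ESC KD1 replicate 2. Neither line was called against scrambled cells.

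In the Kcnq1 cluster, members did not move together. Cdkn1c, the cyclin-dependent kinase inhibitor p57, read 8.63 and 8.38 in scrambled ESC and 10.41 and 10.38 in scrambled RA, a rise of 1.89 (SE 0.18, adjusted p = 4.61e-05, fit of 10 arrays). Phlda2, which restrains placental growth, read 12.51 and 12.22 in scrambled ESC, 12.79 and 12.49 in KD1 and 12.71 in KD2 replicate 1. In the RA arrays the signals were 11.87 and 12.17, 11.38 and 11.20, and 12.11, in the same order, with 11.91 and 12.43 in the RA-like ESC array and the ESC-like RA array. The KD1 arrays were thus the lowest in RA, while in ESC they lay within the range of the other arrays or above it. Phlda2 was lower in KD1 than in scrambled RA cells (-0.73, SE 0.14, adjusted p = 0.0103), a call lost without RA Scrambled replicate 2 or RA KD1 replicate 2. For KD1 its difference changed between the states by -1.0 (SE 0.20, adjusted p = 0.0237). Ascl2, a trophoblast transcription factor, fell between ESC and RA over both knockdown lines, as given above, but in scrambled cells its difference of -0.47 was not called (adjusted p = 0.0677). The membrane transporter gene Slc22a18 had a difference of -0.40 there, also not called.

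The Dlk1-Meg3 cluster on chromosome 12 has protein-coding genes usually read from the paternal copy and non-coding RNAs read from the maternal copy. Dlk1, a membrane protein of the Notch ligand family, read 8.80 and 7.89 in scrambled ESC, 8.79 and 8.20 in KD1 and 9.42 in KD2 replicate 1. In RA the 5 arrays of the fit of 10 lay between 12.30 and 12.62, with no call against scrambled cells. Rtl1, a retrotransposon-derived gene, stayed between 6.75 and 7.02 in all 12 arrays, below the median of all values, 7.22.

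The maternal non-coding RNAs of the same cluster behaved differently. Meg3 read 10.34 and 10.41 in scrambled ESC, 11.02 and 11.15 in KD1 and 10.86 in KD2 replicate 1, so all knockdown arrays lay above both scrambled ones. Rian, which hosts small nucleolar RNAs, read 5.92 and 6.45, 6.92 and 7.21, and 6.93 in the same order, all below the median of all values, 7.22. Meg3 was higher in KD1 ESC by 0.71 (SE 0.13, adjusted p = 0.0253) and Rian by 0.87 (SE 0.18, adjusted p = 0.046) in the fit of 10 arrays. The Meg3 call was lost when any 1 of the 4 arrays was left out, and that of Rian in 3 of 4 cases, being kept without ESC Scrambled replicate 2. In RA Meg3 read 11.31 and 11.69 in the scrambled line, 11.43 and 11.52 in KD1, and 12.11 in KD2 replicate 1, and was not called. Rian there read 7.21 and 7.22, 7.50 and 7.63, and 8.11, again without a call (adjusted p = 0.0671 over both lines). In the RA-like ESC array Meg3 read 12.29 and Rian 8.36, and in the ESC-like RA array 10.89 and 6.61.

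Probe sets shared with another gene were tested apart, among the 23410 annotated probe sets, and 2 of them bear on this cluster. One is shared by Rian and the small RNA gene AF357355. It read 9.04 and 9.20 in scrambled ESC, 9.93 and 10.21 in KD1 and 9.75 in KD2 replicate 1, and 9.46 and 9.41, 9.87 and 9.82, and 10.24 in RA. Every knockdown array of each state lay above both scrambled arrays of that state, and the knockdown difference was 0.79 in ESC (SE 0.12, adjusted p = 0.0244) and 0.60 in RA (SE 0.12, adjusted p = 0.0257), fit of 10 arrays. The planned fit gave 0.96 (adjusted p = 0.35) and 0.41 (adjusted p = 0.54). The other is shared by Mirg, a microRNA host, and Mir410. It read 7.87 and 8.21 in scrambled ESC and 8.92 and 8.90 in KD1, a rise of 0.87 (SE 0.15, adjusted p = 0.0249, fit of 10 arrays; planned fit 0.454).

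Nnat, which encodes the small membrane protein neuronatin, read 9.23 and 9.40 in scrambled ESC, 9.43 and 9.22 in KD1, and 10.63 in KD2 replicate 1. After RA it reached 12.31 and 12.26, 11.73 and 11.68, and 12.15, with 11.93 and 9.93 in the RA-like ESC array and the ESC-like RA array. Its pattern resembled that of Peg3: higher in KD2 in ESC, by 1.32 (SE 0.13, adjusted p = 0.00677, fit of 10 arrays), and lower in KD1 in RA (-0.58, SE 0.11, adjusted p = 0.0089). The KD1 call was kept only without RA Scrambled replicate 2. The mean over both lines in ESC, 0.66 (adjusted p = 0.0255), was lost without ESC KD1 replicate 1.

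In the Peg10-Sgce cluster on chromosome 6, Peg10, a retrotransposon-derived gene needed in the placenta, varied little in size but was tightly replicated. It read 12.93 and 12.94 in scrambled ESC, 13.07 and 13.07 in KD1 and 13.36 in KD2 replicate 1. After RA it read 13.74 and 13.73, 13.62 and 13.68, and 13.65, with 13.79 in the RA-like ESC array and 13.34 in the ESC-like RA array. All knockdown ESC arrays lay above the scrambled ones, by 0.28 over both lines (SE 0.04, adjusted p = 0.0163, fit of 10 arrays), a call lost without ESC Scrambled replicate 2. Sgce, a sarcoglycan gene that shares the promoter region of Peg10, rose by 2.02 in scrambled cells between ESC and RA (adjusted p = 0.000173). Ppp1r9a (neurabin) rose by 0.73 there, and its value in KD1 was -0.10 (SE 0.15), but the difference between these changes was not called (adjusted p = 0.0678). Asb4, an ankyrin-repeat gene, read 6.10 and 6.28 in scrambled ESC and 6.74 and 7.08 in scrambled RA, a rise whose call was lost without ESC Scrambled replicate 1 or RA Scrambled replicate 2.

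Mest, a paternally expressed gene of the hydrolase fold, read 11.77 and 11.17 in scrambled ESC, 11 and 10.72 in KD1 and 11.29 in KD2 replicate 1. In RA it read 13.07 and 13.27, 12.66 and 12.71, and 12.93, with 13.15 and 10.84 in the RA-like ESC array and the ESC-like RA array. It rose by 1.70 in scrambled cells (adjusted p = 6.86e-05), and both KD1 arrays lay below both scrambled ones in each state, but no knockdown difference was called (KD1 -0.61 in ESC and -0.48 in RA).

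In the Snrpn-Ndn cluster Ndn, a paternally expressed gene of the MAGE family, read 9.20 and 9.37 in scrambled ESC, 8.80 and 9.0 in KD1 and 9.17 in KD2 replicate 1. In RA it read 11.19 and 11.29, 10.85 and 10.78, and 11.02, with 11.32 and 9.32 in the RA-like ESC array and the ESC-like RA array. It rose by 1.95 between the states in scrambled cells (adjusted p = 4.14e-06), and its KD1 difference in RA, -0.43, missed the threshold (adjusted p = 0.0517). Its neighbours Magel2, Mkrn3 and Peg12 had RA minus ESC differences of 0.29, 0.49 and 0.23 in scrambled cells, and Mkrn3 alone was called (adjusted p = 0.0322), a call lost without any 1 of the 4 scrambled arrays. The probe set shared by Snurf and Snrpn, which make a spliceosome protein transcript, went the other way. It read 11.65 and 11.47 in scrambled ESC and 10.34 and 10.54 in scrambled RA, a difference of -1.12 (SE 0.11, adjusted p = 6.57e-05). It was lower still in KD1, at 9.81 and 9.72 in RA, or 62.6% of scrambled (adjusted p = 0.0059, planned fit 0.595). This was not seen in KD2 replicate 1, which read 10.35 in RA, a difference of -0.09 from scrambled cells. The ESC-like RA array read 11.38.

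The remaining members lie outside these clusters. Slc38a4, an amino acid transporter gene, read 12.32 and 12.36 in scrambled ESC, 12.22 and 12.37 in KD1, and 12.40 and 12.94 in KD2. After RA it read 13.04 and 13.04 in the scrambled line, 12.74 and 12.73 in KD1, and 13.05 and 12.50 in KD2. The 2 KD1 arrays of RA lay below both scrambled ones, a difference of -0.31 (SE 0.06, adjusted p = 0.0132) that was lost when any 1 of the 4 arrays was left out. Sfmbt2, a polycomb-related gene, read 10.79 and 10.07 in scrambled ESC, 10.98 and 10.46 in KD1 and 11.74 in KD2 replicate 1, and 10.48 and 10.70, 11.42 and 11.41, and 11.26 in RA. The 3 knockdown RA arrays all lay above both scrambled ones, yet the difference of 0.75 (SE 0.22) was not called (adjusted p = 0.0856). Impact, an inhibitor of the stress kinase GCN2, read 11.77 and 11.69 in scrambled ESC, 11.38 and 11.40 in KD1, and 11.86 and 11.99 in KD2. Its RA arrays lay between 11.72 and 12.12, with scrambled values of 11.90 and 11.84, KD1 values of 11.93 and 11.85, and KD2 values of 12.12 and 11.72. Gab1, a signalling adaptor imprinted in placenta, ranged from 11.73 to 12.24 over all arrays without a call in a knockdown comparison.

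Commd1, a copper metabolism gene, was the only measured member called lower between ESC and RA in scrambled cells, from 8.18 and 8.67 to 7.41 and 7.75, and its knockdown differences were not called. It read 8.24 and 8.33 in KD1 ESC and 7.68 and 7.76 in KD1 RA. KD2 replicate 1 read 8.14 in ESC and 7.88 in RA, with 7.83 and 8.41 in the RA-like ESC array and the ESC-like RA array. The probe set shared by Gnas, the stimulatory G protein gene, and its antisense RNA Gnasas1 rose by 1.29 between ESC and RA in scrambled cells (SE 0.10, adjusted p = 2.21e-05), from 9.14 and 9.15 to 10.43 and 10.43, and the KD1 RA arrays read 10.39 and 10.39.

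The 2 knockdown lines differed from each other at several members. In ESC the planned fit called 0 members between KD1 and KD2, with 11 at an unadjusted p below 0.05, against 0.13% of all genes. The fit of 10 arrays called 7, against 2.19%: Ddc was higher in KD1, and Peg3, Plagl1, Igf2, Nnat, Peg10 and Impact were lower. This became 3 without ESC KD1 replicate 1 (Peg3, Igf2 and Nnat) or replicate 2 (Ddc, Peg3 and Nnat). In RA the planned fit called Zim1, against 1.34%, and the fit of 10 arrays called 4, against 3.72%: Zim1 and Dcn were higher in KD1, and Grb10 and Phlda2 lower. The planned count became 0 without either KD1 RA array and 3 without RA KD2 replicate 1. The count from 10 arrays became 2 without RA KD1 replicate 1 and 1 (Zim1) without replicate 2.

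A further list held 44 imprinted genes that are no members, 38 of them measured. In RA 1 of the 38 was called over both lines in each fit, against 6.05% of all genes (10 arrays) and 1.14% (planned fit). The gene called lower was Nap1l5, a paternally expressed gene related to nucleosome assembly proteins, as Set is. Nap1l5 read 8.44 and 7.66 in scrambled RA, 6.52 and 6.63 in KD1, 6.86 in the other KD2 array and 6.41 in the ESC-like RA array. The ESC arrays lay between 6.26 and 6.55. All 4 knockdown RA arrays lay below both scrambled ones, with a difference of -1.33 (SE 0.20, adjusted p = 0.00605, fit of 10 arrays) or -1.44 in the planned fit. In the fit of 10 arrays Atp10a was lower in KD1 ESC (-0.58), where 1 of the 38 was called against 1.92% of all genes. H13 was higher in KD1 RA by 0.46, where 1 of the 38 was called higher and 1 lower, against 12.1%. Of the 38, 15 rose and 4 fell between ESC and RA in scrambled cells in that fit, against 42.6% of all genes called in either direction, Calcr most (2.46). Leaving out single arrays was not run for genes that are no members.

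Factors that set or keep imprints were listed as well, together with the methylation erasers Tet1, Tet2 and Tet3, 17 of 18 being measured. Tet3 read 7.61 and 8.05 in scrambled ESC and 10.45 and 10.16 in scrambled RA. Tet1 went from 12.72 and 12.6 to 10.66 and 10.62, and Tet2 from 10.7 and 10.31 to 9.49 and 9.32. The counts below thus hold both kinds of factor. In scrambled cells 12 of the 17 fell and 2 rose between ESC and RA in the fit of 10 arrays, against 42.6% of all genes, led by Dnmt3l, the cofactor of the de novo DNA methyltransferases (-3.50). Dppa3, which protects methylation in the early embryo, read 9.61 and 9.93 in scrambled ESC, 7.69 and 7.72 in KD1 and 9.20 in KD2 replicate 1. Its difference in KD1 was -2.07 (SE 0.19, adjusted p = 0.00193). For KD1 in ESC 2 of the 17 were called lower and 0 higher in the fit of 10 arrays, against 1.92% of all genes. The planned fit called 0 of the 17 there. Over both lines in RA 2 of the 17 were called higher and 1 lower in the fit of 10 arrays, against 6.05% of all genes and none of the 17 in the planned fit: Dnmt3l by 1.36 (adjusted p = 0.00251), the methyltransferase gene Dnmt3b by 1.12 (adjusted p = 0.0454), and Dnmt3a by -0.62 (adjusted p = 0.0455). Dnmt3l read 8.64 and 9.28 in scrambled RA, 10.19 and 10.31 in KD1 and 10.40 in KD2 replicate 1, and 12.43 and 12.49 in scrambled ESC. Zfp57 read 11.82 and 12.07 in scrambled RA, 11.44 and 11.57 in KD1 and 11.74 in KD2 replicate 1. It was lower in KD1 (-0.44, SE 0.09, adjusted p = 0.0161). For KD1 in RA 2 of the 17 were called higher and 3 lower in the fit of 10 arrays, against 12.1% of all genes. The planned fit called 0 of them.

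The KD1 arrays in RA differed from scrambled ones in their extraembryonic endoderm markers too. Extraembryonic endoderm markers had array means of 9.68 and 9.80 in scrambled RA, 11.83 and 11.90 in KD1 and 10.39 in KD2 replicate 1. In KD1 all 11 of the 11 markers were called higher in the fit of 10 arrays, where 12.1% of all genes were called in either direction. The planned fit called 5 of them, against 2.32%. In the KD1 arrays none of the 11 lay below the median of all values. The other lists have the same 12.1% of all genes beside them. Neural markers had array means of 8.13 and 7.97 in scrambled RA and 7.86 and 7.78 in KD1, with 1 of 7 called lower. Trophoblast markers had means of 9.50 and 9.64 against 9.31 and 9.44, with 2 of 8 called lower. Of the naive pluripotency markers 3 of 12 were called higher and 2 lower in KD1. The part of these differences in the member values of KD1 was not tested.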

How the data were processed

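RNA of 12 samples was labelled as biotinylated cRNA from 300 ng of total RNA and read on 1 array each, per the labels' protocols. The authors deposited log2 signals per probe set, made with RMA per the submitters' processing notes; no version is given in the sources used here, and RMA shares normalization across all arrays. Of 35556 probe sets, 21789 had 1 gene symbol in the platform annotation, 1621 several and 12146 none. Each gene took its brightest probe set with 1 symbol, giving 19938 genes. Group means were fitted with limma 3.58.1 (R 4.3.3) with an intensity trend, and p-values were Benjamini-Hochberg adjusted over all genes and called below 0.05. The planned fit of 12 arrays had 6 residual degrees of freedom and that of 10 arrays 4. The fits were tested on simulated data. There were 11 planned comparisons and 2 added after the data were seen, KD1 alone between states and its interaction. Every measured member could be named; values in every array were given for members called in a knockdown comparison and for at least 1 member per cluster. Genes that are no members were named only from the lists, where called in a knockdown comparison or for the largest change. The members and lists were chosen with earlier results of these data known. Alternatives covered the probe-set rule, normalization, trend, signal filter, replicate block and leaving out arrays. Figures were drawn with matplotlib 3.10.9. Arrays give no read depth, so their number limits the precision.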

Additional observations from a re-analysis of the deposited data

Results flagged for a closer look

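Of the members, 6 had a knockdown difference that changed between ESC and RA by the interaction test in the fit of 10 arrays. The changes were -1.77 log2 units for Grb10, -1.36 for Dcn, -1.02 for Nnat, -0.96 for Zim1, -0.73 for Peg3 and -0.36 for Peg10. For Grb10 the change was kept in each of 8 fits that left out 1 more array, and for Zim1 in 1 of the 8. The Dcn and Peg10 changes were lost without RA Scrambled replicate 1, that of Nnat without RA Scrambled replicate 1 or RA KD1 replicate 2, and that of Peg3 without any 1 of the 4 scrambled and KD1 arrays of RA. In ESC the difference was above 0 for Peg3, Nnat, Peg10 and Dcn, for Dcn without a call (0.47, adjusted p = 0.156).

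The 2 knockdown lines differed in ESC at 7 members in the fit of 10 arrays, given as KD1 minus KD2. The differences were 0.95 for Ddc, -1.88 for Igf2, -1.40 for Peg3, -1.31 for Nnat, -0.99 for Plagl1, -0.47 for Impact and -0.29 for Peg10. Those of Peg3 and Nnat were kept without either KD1 array. In RA the lines differed at Zim1 in the planned fit, by 3.39. In the fit of 10 arrays they differed there at Zim1 by 2.75, at Grb10 by -1.34, at Phlda2 by -0.82 and at Dcn by 0.75. KD2 is a single array per state in that fit. As given above, the fit of 10 arrays called 2.19% of all genes between the lines in ESC and 3.72% in RA, and the planned fit 1.34% in RA.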

How the results depend on the processing

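The planned fit used all 12 arrays. Without the 2 arrays that resembled the other state the members called were 23 between the states in scrambled cells and 22 over the knockdown lines, 4 for the knockdown in ESC, 5 in RA and 6 for the interaction. By line they were 3 (KD1, ESC), 9 (KD1, RA) and 4 (KD2, ESC), and between lines 7 in ESC and 4 in RA. The replicate numbers name no shared day or batch and cover only 2 values, so samples were not taken as paired. Correlations of replicate differences were 0.141 to 0.633 within a state, the highest between scrambled and KD1 cells in ESC. Between states they were -0.102 to 0.105, apart from -0.864 between KD2 in ESC and KD2 in RA. Those 2 groups hold the arrays that resembled the other state. With the replicate number as a block, the planned fit called 3 members between states in scrambled cells, 0 over the knockdown lines, 2 for KD1 in RA (Grb10 and Sfmbt2) and 1 for KD2 in RA (Grb10), against 1.19%, 0.321%, 2.67% and 0.191% of all genes. With the block and without the 2 arrays the counts were 25 and 25 between states (45% and 43.4% of all genes), 13 and 16 for the knockdown in ESC and RA (6.14% and 16.6%), and 7 for the interaction (2.75%). By line they were 10 and 16 for KD1 (10.5% and 24%), 13 and 8 for KD2 (4.21% and 5.05%), and 12 and 9 between lines (7.95% and 9.64%), each in ESC and RA. KD2 in RA had 1 member called without the intensity trend or with only genes above the median. Other settings (the mean of all probe sets, another quantile normalization, centred arrays, all annotated probe sets, the last added later) kept each of these counts within 1.5 times.

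Leaving out single arrays from the planned fit gave 0 to 0 between states in scrambled cells, 0 to 12 over the knockdown lines, 1 to 2 for the knockdown in RA, 0 to 1 for the interaction, 0 to 4 for KD2 in RA and 0 to 3 between lines in RA. From the fit of 10 arrays it gave 2 to 5 for the knockdown in ESC and 3 to 4 in RA, 1 to 6 for the interaction, 1 to 3 for KD1 in ESC and 2 to 4 in RA, 6 to 7 for KD2 in ESC, and between lines 3 to 3 in ESC and 1 to 2 in RA. The Ddc difference between lines in ESC turned to -0.01 without ESC KD1 replicate 1 and -0.63 without ESC KD2 replicate 1, the lowest, and was 0.95 without ESC KD2 replicate 2, the highest, against 0.16 in the planned fit. The cause of these shifts was not tested. KD2 arrays were not left out of the fit of 10 arrays, in which KD2 has 1 array per state.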
